A study of Mus musculus with 3 samples.

Results

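Fibroblasts of the mouse anorectal junction were taken as every cell that the authors placed in their cluster 10, which carries their fibroblast annotation. They numbered 1974 of 37080 cells. The study profiled single cells from distal colon and anus around an episode of chemical colitis caused by dextran sodium sulfate (DSS), a polymer that injures the colonic epithelium. All mice were wild-type C57Bl/6, bought at 6 weeks of age. The day 0 group (5 mice) was untreated and histologically normal, the day 7 group (5 mice) had drunk 3% DSS for 6 days and had severe colitis, and the day 42 group (5 mice) had received the same DSS course and had recovered. The tissue of the 5 mice of a day was pooled into 1 library, digested with trypsin and cleared of dead cells, so each day is 1 sample, mice cannot be told apart, and no test between days is possible.

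Fibroblasts build the collagen-rich matrix between epithelium and muscle and remodel it with secreted proteases. In the gut they also send Wnt, R-spondin, BMP and growth factor signals that position stem cells and differentiating cells along the crypt. In skin, papillary, reticular and hair-follicle-associated fibroblasts differ in the genes they use, and the junction studied here holds both kinds of tissue.

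The day 0, day 7 and day 42 libraries held 1436, 316 and 222 fibroblasts, with 6536325, 1829793 and 685266 unique molecular identifiers (UMIs, counted transcripts) in sum and medians of 4366, 5015 and 2645.5 UMIs per cell. Values below are UMIs per 1000000 UMIs of the summed fibroblasts of a library (CPM), with exact Poisson 95% intervals that cover counting error only. A log2 ratio is between CPM values with 10 added, and a gene is called past the fold when it exceeds 1 on that scale, a 2-fold difference. The median log2 ratio of all genes at 50 CPM or more was -0.02 at day 7 and 0.02 at day 42, both against the same day 0 library. No fibroblast barcode was shared between the fibroblasts of different libraries, and 14 fibroblasts carried a barcode that also occurred in another library.

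The fibroblast markers were high in all 3 libraries. Col3a1, a fibrillar collagen, had 9349.9 CPM at day 0, 10257 at day 7 and 9183 at day 42. Dcn, a collagen-binding proteoglycan, had 10966, 10482 and 8935 CPM, and Pdgfra, the receptor that marks many gut and skin fibroblasts, had 511, 507 and 479. These 3 genes stayed within the fold on both days. Each of the 9 fixed fibroblast markers was at 20 CPM or more in every library. In addition, 82 of 2656 genes (3.09%) were at least 2-fold above every other annotation with at least 50 cells in the library; this describes a cluster defined on the same genes and is no test. That limit left the muscle-like cells in the comparison at day 0 (296 cells) but not at day 7 (41 cells) or day 42 (24 cells). With muscle-like cells compared in every library the count was 50, and with every annotation compared, however few its cells, it was 48. The muscle-like cells held much of both matrix genes on all 3 days, with 4183, 3880 and 3606 CPM of Col3a1 and 3629, 6121 and 3809 of Dcn. Dcn was thus less than 2-fold above them at day 7. Endothelial markers summed to at most 16.4 CPM and macrophage markers to at most 22.4 CPM.

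RNA of other cells was also present and differed between the libraries. Neutrophil markers summed to 53.7 CPM at day 0, 3234 at day 7 and 560.4 at day 42, with 4, 8 and 7 of the 8 markers detected and Retnlg, Csf3r, Cxcr2 and Mmp8 at 0 at day 0. Keratinocyte markers summed to 1692, 2508 and 5039 CPM, with all 10 detected each time. Red cell markers summed to 538, 1728 and 2148 CPM, all 5 detected. Columnar epithelium markers summed to 340, 1006 and 337 CPM with 10, 9 and 8 of 10 detected, highest at day 7. Lymphatic markers summed to 190.02, 452 and 155 CPM, of which Pdpn, also a gene of fibroblasts, had 179.8, 445 and 152. T cell markers summed to 58.3, 199 and 99.2 CPM, of which Thy1, likewise used by fibroblasts, had 52.6, 192 and 86.1. Secretory epithelium markers went the other way, at 139.7, 30.6 and 64.2 CPM. More than 1% of UMIs came from epithelial, neutrophil, T cell or red cell markers in 52, 66 and 21 fibroblasts of the 3 libraries. The part of this RNA in the results below was not tested, except where values without those cells are given.

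Fibroblasts made up 13.0% of the day 0 cells (12.4 to 13.7, 95% Clopper-Pearson), 2.20% of the day 7 cells (1.96 to 2.45) and 1.90% of the day 42 cells (1.66 to 2.17). Among stromal cells, meaning fibroblasts with endothelial, lymphatic and muscle-like cells, the share was 75.8% (73.8 to 77.7), 36.8% (33.6 to 40.1) and 49.1% (44.4 to 53.8). The intervals of day 7 and day 42 did not overlap with that of day 0 in either denominator, but they cover counting error only. With all cells as the denominator day 7 was above day 42, and among stromal cells it was below. Because the shares within a library sum to a fixed total, any class that grows lowers the rest, and the yield of the trypsin digest enters each value.

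**Figure D1:**
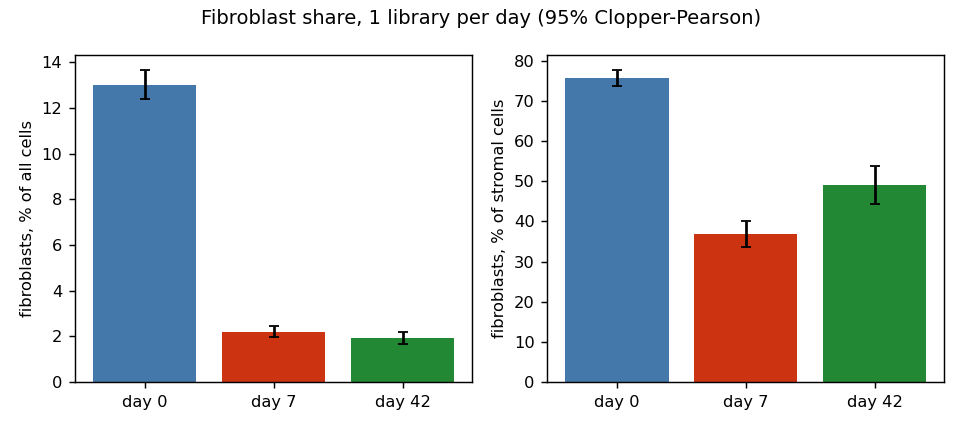
Fibroblasts as a percentage of all cells (left) and of stromal cells (right) in the day 0, day 7 and day 42 libraries; bars are the 1 library of each day and error bars 95% Clopper-Pearson intervals. The day 0 bars are highest, at 13.0% and 75.8%.

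At day 7, fibroblasts held far more transcripts of some secreted matrix proteases, acute phase proteins and cytokines than at day 0, among them Mmp13, Saa3 and Il11, and fewer of several matrix glycoproteins and of Adamdec1. Of 3651 genes at 50 CPM or more in either library, 165 were higher past the fold (4.52%) and 173 lower (4.74%). At the lower limit of 20 CPM used for the gene lists, 258 of 7176 genes were higher (3.60%) and 234 lower (3.26%). Of the fixed list of matrix proteases and inhibitors, 12 of 34 measured genes were higher and 1 lower. Their median log2 ratio was 0.54, beside -0.05 for all genes at 20 CPM or more. Without the 10 cells with most UMIs of each gene the median of the list was 0.25, beside -0.26 for all genes at 50 CPM or more in that setting.

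The collagenase Mmp13 had 2.14 CPM (1.17 to 3.59), 2858 CPM (2781 to 2936) and 128 CPM (103 to 158) on days 0, 7 and 42. Its log2 ratio to day 0 was 7.88 at day 7, the highest among the genes named here. Stromelysin 1, encoded by Mmp3, had 14.2 CPM (11.5 to 17.4), 2103 (2037 to 2170.5) and 153 (125 to 185), a ratio of 6.45 at day 7. Stromelysin 2, encoded by Mmp10, had 8.57 CPM (6.47 to 11.1), 972 (927 to 1018) and 74.4 (55.4 to 97.9), a ratio of 5.72. For all 3 genes the day 7 library was highest and day 42 lay between. Transcripts were unevenly spread: the 10 cells with most UMIs held 67.2% of the day 7 Mmp13 UMIs, 58.0% of those of Mmp3 and 51.5% of those of Mmp10. Without the 66 day 7 and 52 day 0 cells rich in markers of other cells, the ratios were 8.08 for Mmp13, 6.69 for Mmp3 and 5.78 for Mmp10. Macrophages, the highest other annotation of at least 50 cells at day 7 for Mmp13 and Mmp3, had 9.80 CPM of each. At day 0 they had 60.98 CPM of Mmp13, above the fibroblasts.

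These 3 proteases lie near one another on mouse chromosome 9, and their promoters are shown because the genes were high together at day 7. Il11 is shown beside them as a cytokine gene with the same pattern on chromosome 7; its second RefSeq start is printed. Each sequence is from RefSeq, build GRCm38.p6, from 250 bases before to 50 after the annotated start, and capitals mark matches to TGANTCA, the AP-1 element, which reads the same on both strands.
Mmp13 (plus strand, chr9:7272264-7272563): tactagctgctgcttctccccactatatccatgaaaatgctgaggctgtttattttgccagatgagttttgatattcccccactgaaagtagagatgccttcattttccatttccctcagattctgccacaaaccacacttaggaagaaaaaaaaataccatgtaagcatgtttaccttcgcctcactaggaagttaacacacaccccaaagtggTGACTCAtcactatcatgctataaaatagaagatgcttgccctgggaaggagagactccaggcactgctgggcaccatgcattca
Mmp3 (plus strand, chr9:7445572-7445871): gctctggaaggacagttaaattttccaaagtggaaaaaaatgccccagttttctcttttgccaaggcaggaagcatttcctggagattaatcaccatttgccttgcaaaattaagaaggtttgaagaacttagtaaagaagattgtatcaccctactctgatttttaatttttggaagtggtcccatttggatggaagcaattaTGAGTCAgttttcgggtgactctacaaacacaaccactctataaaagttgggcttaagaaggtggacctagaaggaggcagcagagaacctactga
Mmp10 (plus strand, chr9:7502092-7502391): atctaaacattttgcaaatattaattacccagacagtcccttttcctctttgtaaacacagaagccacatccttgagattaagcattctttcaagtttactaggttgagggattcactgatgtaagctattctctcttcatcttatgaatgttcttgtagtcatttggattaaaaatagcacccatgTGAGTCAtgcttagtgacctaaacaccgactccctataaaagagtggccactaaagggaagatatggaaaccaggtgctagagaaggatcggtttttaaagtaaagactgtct
Il11 (minus strand, chr7:4778092-4778391): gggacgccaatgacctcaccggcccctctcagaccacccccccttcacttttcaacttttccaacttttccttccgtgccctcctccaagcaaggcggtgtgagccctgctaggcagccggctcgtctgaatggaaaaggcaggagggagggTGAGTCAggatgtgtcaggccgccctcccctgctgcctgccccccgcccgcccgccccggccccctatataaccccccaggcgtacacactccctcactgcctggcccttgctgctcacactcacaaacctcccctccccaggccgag
Each of these 4 promoters held 1 match, which began at position -35 in Mmp13, -46 in Mmp3, -63 in Mmp10 and -98 in Il11, counted from the annotated start. The element was found in 7.81% of all 32851 promoters in the table. No match to these letters was found at the first RefSeq start of Il11, at either start of Il1rl1, or in the promoters of Saa3, Cxcl13 and Serpina3n, genes that were also higher at day 7. A comparison between gene groups is void, because only 117 of the 165 genes higher at day 7 had a promoter in the table. A match is a description of the letters and not of a bound site.

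Other genes of the protease list followed. Serpina3n, a serine protease inhibitor of the acute phase, had 102 CPM (94.7 to 110), 1192 CPM (1143 to 1244) and 323 CPM (281 to 368) on days 0, 7 and 42, with a log2 ratio of 3.42 at day 7. Lymphatic cells held more of it at day 7, 1492 CPM. Timp1, an inhibitor of metalloproteases, had 82.6, 424 and 117 CPM, and Serpine2, an inhibitor of thrombin and plasminogen activators, had 153, 699 and 261. Adamdec1, a metalloprotease-like gene typical of gut fibroblasts, went the other way, with 3399 CPM (3355 to 3444), 218 CPM (197 to 241) and 1777 CPM (1679 to 1880.1) on days 0, 7 and 42, a log2 ratio of -3.90. In each case the day 42 level lay between those of the other days. When every cell was assigned to the most similar subcluster of the day 0 fibroblasts, described further on, the 3 subclusters with most Adamdec1 differed in size between libraries. The assignment rests on levels of genes variable at day 0. A change in make-up therefore cannot be told apart from a change of level within cells. Subclusters 2 and 4 took 249 and 147 of 1436 cells at day 0, 5 and 4 of 316 at day 7, and 36 and 7 of 222 at day 42. Subcluster 3 took 279, 30 and 66 cells. With the 6 subclusters of at least 20 cells in both libraries weighted equally, which leaves out subclusters 2 and 4 but not 3, the log2 ratio of Adamdec1 at day 7 was -3.46. The same weighting gave 5.19 for Mmp3, 7.96 for Mmp13 and 6.83 for Saa3. Mmp2, a gelatinase made by most fibroblasts, stayed within the fold at 754, 995 and 698 CPM.

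**Figure D2:**
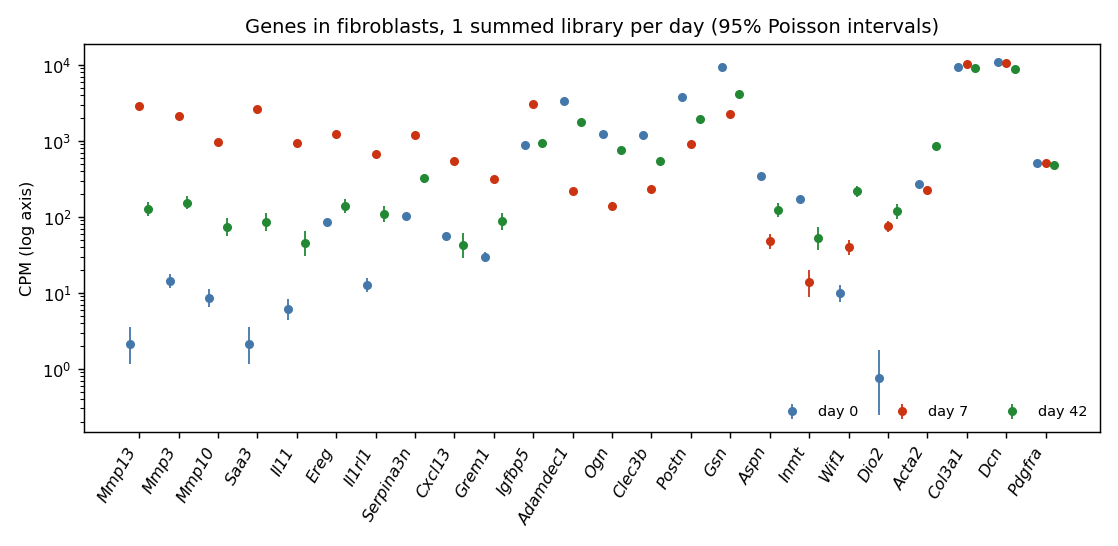
CPM in the summed fibroblasts (vertical log axis) for 24 genes, with 1 point per library and 95% Poisson intervals. Mmp13, Mmp3, Mmp10, Saa3 and Il11 are highest at day 7, Adamdec1 and Ogn are lowest at day 7, and Col3a1, Dcn and Pdgfra differ little.

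Among complement and acute phase genes, 10 of 24 measured were higher at day 7 and 2 lower, with a median log2 ratio of 0.76. With the day 0 subclusters weighted equally the median was 0.063, without the 10 cells with most UMIs of each gene 0.23, and in cells thinned to 1000 UMIs 0.41. Saa3, an acute phase serum amyloid, had 2.14 CPM (1.17 to 3.59), 2598 CPM (2525 to 2673) and 86.1 CPM (65.5 to 111) on days 0, 7 and 42, a ratio of 7.75. Macrophages held a similar amount of Saa3 at day 7, 2091 CPM. C3, the central complement protein, had 293, 750.4 and 705 CPM and was past the fold on both days. Saa1, Lcn2, Hp and Cd14 also counted as higher. At day 7 neutrophils held 6552 CPM of Lcn2 against 269 in fibroblasts, 2269 of Hp against 36.1 and 4337 of Cd14 against 55.7, and neutrophil markers in the fibroblasts were at their highest. Colonocytes held 5625 CPM of Saa1 at day 7 against 169 in fibroblasts, and the part of other cells' RNA in these levels was not tested.

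Cytokines and chemokines showed 8 of 31 and 7 of 14 measured genes higher, and 1 and 0 lower, with median log2 ratios of 0.15 and 0.93. Without the 10 cells with most UMIs of each gene the chemokine median was 0.22. Il11, an interleukin 6 family cytokine made by stromal cells, had 6.12 CPM (4.37 to 8.33), 948 CPM (904 to 993) and 45.2 CPM (30.7 to 64.2) on days 0, 7 and 42. Its log2 ratio at day 7 was 5.89. Il1rl1, the receptor for interleukin 33, had 12.7, 676 and 109 CPM, a ratio of 4.92, and 60.1% of its day 7 UMIs came from 10 cells. The neutrophil-attracting chemokine Cxcl5 had 9.03, 620 and 131 CPM. Keratinocytes had 349 CPM of Cxcl5 at day 7 and 438 at day 42, when they exceeded the fibroblasts and keratinocyte markers in the fibroblasts were highest; the part of their RNA was not tested. Cxcl1, with the same function, had 72.1, 574 and 19.0 CPM. Endothelial cells had 713 CPM of Cxcl1 at day 7. The B cell chemokine Cxcl13 had 55.4, 538 and 42.3 CPM, and the monocyte chemokine Ccl2 had 56.8, 458 and 35.0. Cxcl13 and Ccl2 were thus within the fold of day 0 again at day 42, while Cxcl1 was lower than at day 0 past the fold. Cxcl2, another neutrophil attractant, counted as higher with 438 CPM at day 7, when neutrophils held 12525. Il1b also counted as higher, but 90.3% of its day 7 UMIs in fibroblasts came from 10 cells and macrophages held 12398 CPM of it.

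Growth factor and Wnt genes moved in both directions. Of the growth factor and IGF binding protein list, 10 of 42 measured genes were higher and 8 lower. Ereg, an epidermal growth factor receptor ligand, had 86.7 CPM (79.8 to 94.2), 1240.03 CPM (1190 to 1292) and 140.1 CPM (113 to 171) on days 0, 7 and 42, a log2 ratio of 3.69 at day 7. Igfbp5, which binds insulin-like growth factors, had 895, 3104 and 939.8 CPM, whereas Igfbp6 had 980.2, 239.9 and 729.6. Of the Wnt and R-spondin list, 7 of 20 genes were higher and 4 lower. Sfrp1, a secreted Wnt inhibitor, had 159, 505 and 165 CPM, and Wnt5a, a non-canonical Wnt ligand, had 199, 478 and 282. The R-spondin gene Rspo3, an amplifier of Wnt signals, was low throughout, at 4.90, 48.6 and 10.2 CPM. Grem1, a BMP inhibitor of crypt-base fibroblasts, had 29.7, 314 and 87.6 CPM, a ratio of 3.03 at day 7, while the BMP ligand Bmp5 had 412, 196 and 343. In the BMP and TGF beta list as a whole, 4 of 33 genes were higher and 6 lower.

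Matrix glycoproteins and proteoglycans formed the list with most genes lower at day 7, with 17 of 53 lower and 2 higher, and a median of -0.28. Averaged as CPM per cell the median was -0.50. At day 42 the list's median was -0.34, with 6 of 52 lower and 3 higher. Whether it was closer to 0 than at day 7 depended on the setting. Averaged as CPM per cell it was -0.25 at day 42. In thinned cells it was -0.32 beside -0.47 at day 7, and with subclusters weighted equally -0.14 beside -0.42. Without cells rich in markers of other cells it was -0.17 beside -0.18. Without the 10 cells with most UMIs of each gene it was -0.70 beside -0.56. Ogn, a small leucine-rich proteoglycan, had 1249.8 CPM (1223 to 1277), 140.5 CPM (124 to 159) and 765 CPM (701 to 833) on days 0, 7 and 42, a log2 ratio of -3.07. Postn, a matricellular protein, had 3801 CPM (3754 to 3848), 915 (872 to 960) and 1915 (1812 to 2021). Clec3b, which encodes tetranectin, had 1192, 232 and 540 CPM, and Aspn, another leucine-rich proteoglycan, had 340.4, 47.5 and 124. Each was lowest at day 7 and had not reached its day 0 level at day 42. Gsn, the actin-severing protein gelsolin, followed the same order at 9508, 2263 and 4147 CPM. The collagens differed less, with 3 of 23 higher and 3 lower. Col1a1 stayed within the fold at 2394, 2757 and 2098 CPM, whereas Col7a1, the anchoring fibril collagen, had 7.50, 140.5 and 32.1. Of 24 positional transcription factors, 4 were lower (Osr1, Tcf21, Foxl1 and Pitx1) and 0 higher; Tcf21, a mesenchymal factor, had 377, 103 and 198 CPM.

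Counts for further lists at day 7 were as follows. Of 33 interferon-stimulated genes 1 was higher and 2 lower, and none of 15 MHC class I genes was past the fold. Of 32 secretory pathway genes 0 were higher and 1 lower and of 24 collagen processing genes 0 and 1. Of 27 hypoxia and glycolysis genes 3 were higher and 1 lower, and of 22 contractile genes 1 was higher and 3 lower. Prostaglandin and retinoid genes were past the fold in both directions, with 4 of 22 higher, among them the cyclooxygenase Ptgs2, and 6 lower, among them the retinaldehyde dehydrogenase Aldh1a1. Proliferation genes were at low levels, with 5 of 14 measured higher, among them Top2a, a topoisomerase of dividing cells, with 4.44 CPM at day 0 and 32.8 at day 7.

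**Figure D3:**
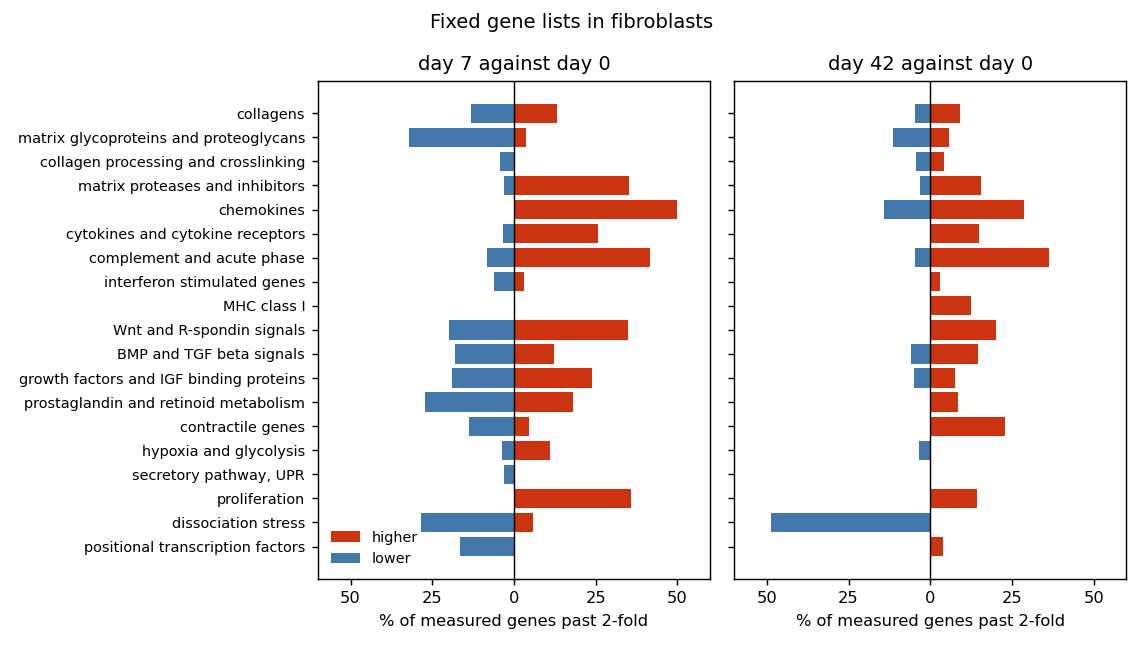
Percentage of the measured genes of each fixed list that were higher (bars to the right) or lower (bars to the left) past 2-fold in fibroblasts at day 7 and at day 42 against day 0. Chemokines (7 of 14) and complement and acute phase genes (10 of 24) reach furthest right at day 7, and dissociation stress genes reach furthest left at day 42.

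At day 42 fewer genes differed from day 0, and the named ones included Wnt inhibitors, contractile genes and stress genes. Of 3632 genes at 50 CPM or more, 98 were higher past the fold (2.70%) and 77 lower (2.12%). At 20 CPM, 160 of 7256 were higher (2.21%) and 104 lower (1.43%). Of the 165 genes higher at day 7, 112 were within the fold at day 42, and of the 173 lower, 131 were. Both comparisons use the same day 0 library, so these counts are descriptions of levels.

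Wif1, a secreted Wnt inhibitor, had 9.79 CPM (7.54 to 12.5), 39.9 CPM (31.3 to 50.2) and 216 CPM (183 to 254) on days 0, 7 and 42, a log2 ratio of 3.51 at day 42. Dio2, the enzyme that activates thyroid hormone, had 0.765, 74.9 and 118 CPM, a ratio of 3.57. Notum, an enzyme that inactivates Wnt ligands, had 1.68, 7.10 and 48.2 CPM. For Wif1, Dio2 and Notum day 42 was the highest library. Of the Wnt list, 4 of 20 genes were higher at day 42 and 0 lower. The proteases remained above day 0, with ratios of 3.51 for Mmp13 and 2.75 for Mmp3, but the 10 cells with most UMIs held 90.9% and 93.3% of those transcripts. With those cells left out the ratio of Mmp3 was 0.44, no longer past the fold, and that of Mmp13 was 1.15. The same removal took 65.5% of the Wif1 UMIs at day 42 and left a ratio of 2.72.

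Contractile genes were higher for 5 of 22 measured and lower for 0, with a median log2 ratio of 0.40. Without the 10 cells with most UMIs of each gene that median was -0.022, beside -0.36 for all genes in the same setting. Acta2, smooth muscle actin, had 269 CPM (257 to 282), 226 CPM (205 to 249) and 851 CPM (783 to 923) on days 0, 7 and 42, a ratio of 1.63 at day 42. Tagln, an actin-binding protein, had 53.9, 90.7 and 181 CPM. The day 42 library was highest for both. Smooth muscle markers summed to 376, 325 and 1009.8 CPM in the fibroblasts, 6, 7 and 7 of 7 detected, with Cnn1 at 0 at day 0; their part was not tested. Of the day 0 subclusters, the one with most Acta2, subcluster 3, took 279 of 1436 cells at day 0, 30 of 316 at day 7 and 66 of 222 at day 42. With subclusters weighted equally the log2 ratios at day 42 were 1.42 for Acta2 and 1.33 for Tagln, and the median of the list was 0.44. Inhba, an activin subunit, had 59.5, 375 and 314 CPM, and Cxcl14, a chemokine of skin and stroma, had 149.9, 224 and 633.

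Dissociation stress genes, the immediate early and heat shock genes that tissue digestion can raise, were lower at day 42 for 17 of 35 measured and higher for 0, with a median log2 ratio of -0.99. With subclusters weighted equally the median was -0.59. Over genes measured in both, the median at day 42 was 0.47 in keratinocytes beside -0.999 in fibroblasts, and -0.063 in colonocytes beside -1.01. It was -0.73 in endothelial cells beside -0.99, and -0.42 in T cells beside -0.91. At day 7, 10 of 35 were lower and 2 higher. Fos had 2021, 812 and 527 CPM, and the heat shock gene Hspa1a had 1101, 289.7 and 349. Day 0 was the highest library for both, and the digestion and handling of a library cannot be told apart from its day. Mfap5, a microfibril protein, had 353, 169 and 107 CPM, and Inmt, a methyltransferase, had 170, 13.7 and 52.5, both lower at day 42 past the fold. With day 0 subclusters weighted equally the ratio of Inmt at day 42 was -0.97, no longer past it.

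**Figure D4:**
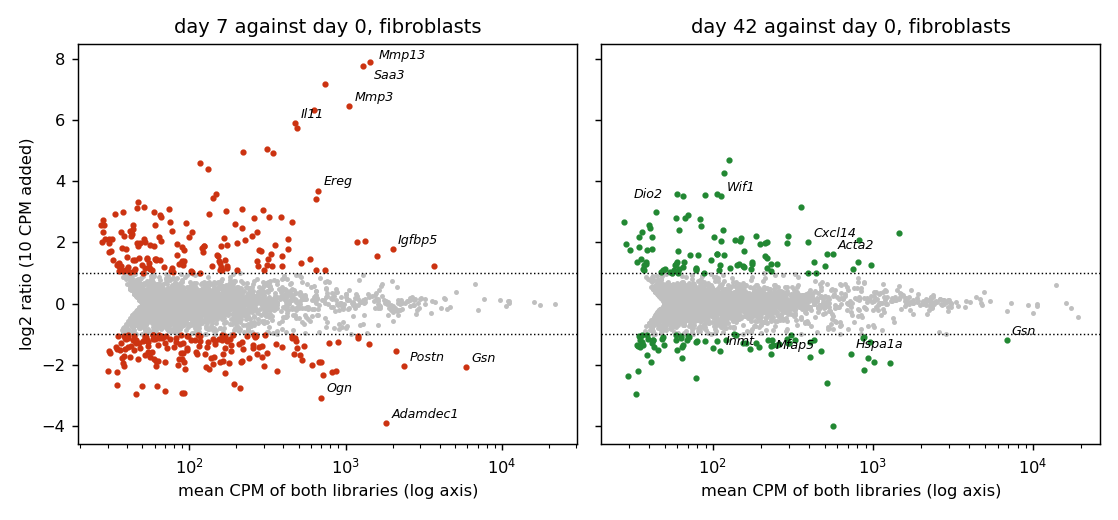
Log2 ratio of fibroblast CPM to day 0 (vertical, 10 CPM added) against the mean CPM of both libraries (horizontal log axis) for day 7 (left) and day 42 (right); coloured points are past 2-fold, marked by dotted lines. Mmp13 and Saa3 stand highest at day 7 with 7.88 and 7.75, and Adamdec1 lowest of the labelled genes with -3.90.

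Shares of cells carrying a transcript were compared after each cell was thinned to 1000 UMIs, which left out 125, 33 and 19 shallower cells. Mmp13 was then found in 0.153% of fibroblasts at day 0, 20.1% at day 7 (15.6 to 25.3) and 5.91% at day 42 (3.09 to 10.1). Before thinning the shares were 0.696%, 29.1% and 8.11%. In keratinocytes the thinned share at day 7 was 0.128% at a median of 11481 UMIs before thinning, against 5015 in fibroblasts. Before thinning, 0 of 3316 keratinocytes at day 0 and 124 of 9035 at day 7 had a UMI of Mmp13. Whether these were background was not tested. Saa3 was found in 38.9% of thinned fibroblasts at day 7 (33.2 to 44.8) and Il11 in 25.1% (20.1 to 30.6), with 48.4% and 40.8% before thinning. The keratinocyte shares were 1.66% and 0.257%. Adamdec1 was found in 60.1%, 15.5% and 46.3% of thinned fibroblasts (65.7%, 28.5% and 52.7% before) and in 0.0817% of thinned keratinocytes at day 7.

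Within day 7 the transcripts were divided among cells. Of the 92 fibroblasts with an Mmp13 UMI, 81 also had one of Mmp10, 77 one of Il11 and 67 one of Mmp3, whereas 11 had one of Adamdec1. None of the 51 cells with Cxcl13 and none of the 54 with Pi16, a marker of adventitial fibroblasts, had Mmp13. Mmp3, in contrast, was found in 16 of the Pi16 cells and 5 of the Cxcl13 cells, and Mmp10 in 0 and 5. Clustering the day 7 fibroblasts gave 6 subclusters, left unnamed here. Subcluster 1 (94 cells) was led by Cxcl10 and Adamdec1, and held 1619 CPM of Cxcl13 and 4846 of Saa3. Subcluster 2 (59 cells) was led by Mmp13, with 9288 CPM, and held 2874 CPM of Mmp10 and 2355 of Il11. Of its 10 leading genes 6 are genes of neutrophils and other myeloid cells, namely S100a8 (4096 CPM), S100a9, Retnlg, Il1b, Cxcl2 and Ngp. Neutrophil markers summed to 10043.5 CPM in it and to 575 in the other day 7 fibroblasts. Without the cells rich in markers of other cells, the log2 ratio at day 7 was 5.83 for Il11 and 4.76 for Il1rl1, beside 5.89 and 4.92 with them; the protease values are given above. Subcluster 3 (49 cells) was led by Ctla2a, Sfrp4 and Crabp1 and held 881 CPM of Pi16 against 3.16 of Mmp13. Subclusters 4 to 6 were led by keratins, haemoglobins and colonocyte genes, and subcluster 6 had a median of 1148 UMIs per cell against 5015 for all day 7 fibroblasts. Subcluster 5, led by haemoglobins, held 3523 CPM of C3.

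**Figure D5:**
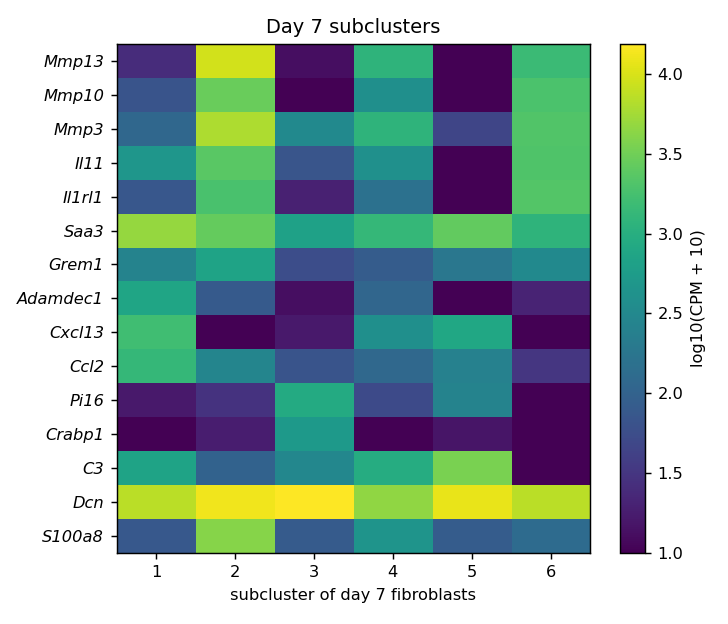
Level of named genes (colour, log10 of CPM plus 10) in the 6 subclusters of the day 7 fibroblasts. Mmp13 is brightest in subcluster 2 with 9288 CPM, Cxcl13 in subcluster 1 with 1619 and Pi16 in subcluster 3 with 881, while Dcn is high in every subcluster.

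The day 0 fibroblasts gave 10 subclusters. Subcluster 1 (325 cells) was led by Edil3, Hapln1 and Tmigd1, and subcluster 2 (320 cells) by Tceal6, Igfbp3 and Lpl with 6819.8 CPM of Adamdec1. Subcluster 3 (248 cells), led by Rgs5, Tnc and Emid1, held 923 CPM of Acta2, 978 of Bmp5 and 513 of Wnt5a. Subcluster 5 (132 cells), led by Ebf1, Inmt and Cilp, and subcluster 9 (43 cells), led by Ctla2a, Sfrp4 and C7, held 17.2 and 0 CPM of Adamdec1 but 249 and 715 of Pi16. Subcluster 10 (31 cells) was led by Cxcl10, Iigp1 and Ccl2, which are interferon-inducible or inflammatory genes. Subclusters 4, 7 and 8 were led by haemoglobins, keratinocyte genes and colonocyte genes, and subcluster 6 (77 cells) by Dkk2, Dner and Ism1. At day 42, 5 subclusters were found. The largest, subcluster 1 (71 cells, 32.0%), was led by haemoglobins, S100a9 and S100a8, with red cell markers at 6859 CPM and neutrophil markers at 1491. Subcluster 5 (22 cells) was led by keratins, with keratinocyte markers at 17907 CPM. Subcluster 4 (40 cells) was led by Wif1 (1609.8 CPM), Dio2 (867) and Mmp13 (929) and held 0 CPM of Adamdec1. Subcluster 2 (47 cells) was led by Edil3, Hapln1 and Sfrp2, and subcluster 3 (42 cells) by Mfap4, Inmt and Ctla2a. Assigned to the day 0 subclusters, 70, 65 and 29 cells of the 3 libraries fell in the keratinocyte-led subcluster 7, and 30, 72 and 4 in subcluster 10.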

How the data were processed

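Single-cell 3' libraries of pooled distal colon and anus were counted with Cell Ranger 3.0.2 on mm10, per the submitters' processing notes. The deposited matrix holds raw UMI counts for 31053 genes. The deposited cell table gives the authors' cluster, annotation and day, a Size_Factor ratio and UMAP coordinates (a score without unit). Size_Factor was used only to check the file, and no result rests on the UMAP coordinates. Fibroblast counts were summed per library and divided by their total. Genes needed 50 CPM in either library for counts, 20 CPM for lists and 100 CPM for naming. Named genes were the 12 highest and 12 lowest ratios per comparison, leaving out genes with more CPM in keratinocytes, colonocytes or neutrophils, members of the fixed lists, and the 20 genes furthest above other annotations. Genes left out this way numbered 7 (higher) and 1 (lower) at day 7 and 12 and 13 at day 42. Cells were not filtered. No doublets were removed, and an alternative dropped the top 5% of Scrublet scores per library. Each library's fibroblasts were clustered with Leiden at resolution 0.5 on 1000 variable genes and 20 components (scanpy 1.11.5, Python 3.11.15). Other annotations were compared only where a library held at least 50 of their cells. The log2 ratios and their intervals were tested on simulated Poisson counts. Such counts lack the uneven spread over cells seen here, so that test checks the calculation and not whether the intervals suit these data. That test failed at first, because its expected ratio was not rescaled to the simulated total. Once this was corrected it met its first tolerance and the interval coverage and direction added later. The cells, gene lists and rules were chosen with earlier results of these data known. Intervals cover counting error only, since 1 library per day leaves no replicate spread; 1 UMI was worth 0.153, 0.547 and 1.46 CPM.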

Additional observations from a re-analysis of the deposited data

Results flagged for a closer look

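The list of proliferation genes had medians of opposite sign in fibroblasts and in another annotation, compared over genes at 20 CPM or more in both. Of its 30 genes, 14 were measured in fibroblasts at day 7 and 7 at day 42. A gene enters by reaching that limit in either library of a comparison. Low genes such as Top2a, given above, therefore enter only through the library where they are higher, which raises the fibroblast median. At day 7 against day 0 the fibroblast median was 0.89 and the colonocyte median -0.91 over 14 genes, a difference of 1.80. Against T cells, with a median of -0.96 over 13 genes, the difference was 1.85. The endothelial (1.07) and keratinocyte (0.57) medians had the fibroblasts' sign at day 7. At day 42 the fibroblast median was 0.61 and the endothelial median -0.58 over 7 genes, a difference of 1.19. The keratinocyte (-0.21), colonocyte (-0.37) and T cell (-0.44) medians were also negative at day 42, but lay under the limit of 0.5 in size. With the 10 cells with most UMIs of each gene left out, the fibroblast median at day 42 was -0.21, beside -0.36 for all genes in that setting. This removal was made in fibroblasts only, so that median cannot be set against the endothelial one. Dissociation stress genes at day 42 differed by more, with a fibroblast median of -0.999 and a keratinocyte median of 0.47, a difference of -1.47, but the latter lay under the limit of 0.5. None of these differences was tested, since each day is 1 library. The annotations compared and the limit of 0.5 on each median were chosen after the data were seen.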

How the results depend on the processing

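No paired analysis was possible because each day is 1 library without replicates. The fibroblast share at day 0 was 16.9% with a filter on cells, 14.5% without unknown cells and 15.7% with muscle-like cells counted as fibroblasts, which gave 2.48% at day 7. Against the main counts of 165 higher and 173 lower at day 7 and 98 and 77 at day 42, leaving out the 10 cells with most UMIs of each gene gave 67, 280, 19 and 259. By construction it removes a larger part of the smaller libraries, with medians of all genes of -0.26 and -0.36. It also reversed the medians of the contractile (-0.022) and proliferation (-0.21) lists at day 42. A limit of 200 CPM gave 68, 73, 41 and 32, as fewer genes enter. A limit of 10 CPM gave 296 higher at day 7, and 178 higher and 117 lower at day 42. Thinned cells gave 149 higher and 124 lower at day 42. Genes above every other annotation of at least 50 cells numbered 28 at 4-fold and 148 with muscle-like cells left out at day 0 too. They numbered 50 with muscle-like cells compared in every library and 48 with all annotations compared. These alternatives on muscle-like cells and small annotations were added after seeing the data, as was counting muscle-like cells as fibroblasts. At resolution 0.25 the day 0 fibroblasts formed 6 subclusters. Without cells over 1% other-cell markers the counts were 149, 177, 84 and 71. Of 480 values of named genes under 10 alternatives 120 moved beyond the counting interval, 42 of 48 with the 10 top cells left out and 21 of 48 with subclusters weighted equally. In 8 cases, all at day 42, the gene was no longer past the fold, among them Il1rl1 (0.98) and Ccl8 (0.95) without the 10 top cells. These genes were chosen for extreme ratios, so their kept signs say little. Of 130 values of the 13 list medians of at least 0.25 in size, 2 changed sign. With subclusters weighted equally, the complement and acute phase median at day 7 went from 0.76 to 0.063 and the stress median at day 42 from -0.99 to -0.59. The depth of day 42 limits genes under a few CPM.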
